A study of Homo sapiens with 6 samples.

Results

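The genes described here encode the machinery of oxidative phosphorylation, the 5 protein complexes of the inner mitochondrial membrane that make ATP. They were taken from the annotated expression table of the series by gene symbol, as every gene whose symbol began with NDUF, UQCR or ATP5 or with COX followed by a digit from 4 to 8, together with CYC1 and SDHA to SDHD. The search found 94 genes among the 15894 genes that a probe set of 1 gene measured. Each gene was read from its brightest probe set, the one with the highest mean over the 6 arrays. The search itself used symbols only, but it was chosen with earlier results of these data known. All 94 genes were matched to a RefSeq gene, and 20 of the symbols used here have since been replaced, for example ATP5A1 by ATP5F1A and NDUFA4 by COXFA4.

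RKO cells, an established human colon carcinoma line, were transfected with a hairpin vector and profiled on Affymetrix PrimeView arrays, 3 arrays of shCIRC cells and 3 of shEV cells. The shCIRC vector carried a short hairpin against the circular RNA hsa_circ_0064559, and the shEV vector carried a nonsense hairpin, so that both groups went through transfection and were grown on as stably transfected populations, which were not described as clones. The comparison asked which genes differed after the hairpin against the circular RNA. The hairpin sequences, shown because they are what separates the groups, were these, written 5′ to 3′.
shCIRC: tttattatagcctgccacagc
shEV: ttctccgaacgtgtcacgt
Whether the 3 arrays of a group stand for 3 cultures is not in the labels, nor whether they come from a single transfected population. If they do, an effect of the hairpin and a difference between populations cannot be told apart. As the cultures are not known, the p-values below rest on array-to-array spread alone, and some of that spread may be technical rather than biological. No probe set was named for the circular RNA, and its knockdown was not analysed here.

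Complexes I to IV form the respiratory chain, and complex V is the ATP synthase. Complex I takes electrons from NADH and complex II from succinate, both pass them to coenzyme Q, complex III passes them on to cytochrome c, and complex IV hands them to oxygen. Complexes I, III and IV pump protons out of the matrix as they do so, and the ATP synthase lets the protons back in and couples their flow to the making of ATP. Complexes I, III, IV and V also have subunits that are encoded in mitochondrial DNA, whereas all the genes counted here lie in the nucleus, and their products have to be imported and assembled in matching amounts. Colon carcinoma cells use this pathway beside glycolysis.

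Of the 94 genes, 30 rose and 20 fell in shCIRC cells at a Benjamini-Hochberg adjusted p below 0.05 (limma, adjusted over all genes), and 44 did not pass. That is 53.2% of the genes, while 47.5% of all 15894 genes passed, 22.8% higher and 24.7% lower. The differences were mostly small. The median size of the log2 difference was 0.11 for these genes and 0.13 for all genes, and 85 of the 94 differed by less than 0.25. When a fold above 1.3 was also required, 3 genes were higher and 3 lower, 6.38% of them against 16.9% of all genes. The median signed difference, shCIRC minus shEV, was 0.024 for these genes and -0.0045 for all genes, and it turned to -0.0094 when the arrays were rescaled by cyclic loess, which left 21 genes higher and 22 lower. The genes past the threshold lay on both sides of 0, and the share of them that was higher moved from 60% to 48.8% with that scaling. No gene past the threshold changed direction under any of the 3 other scalings tried.

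Most of these genes were bright on the array. Their median signal was 12.0 on the log2 scale against 8.11 for all genes, and 87 of the 94 lay above the median of all genes. Replicate arrays differed less for these genes than for all genes, but their spread was not compared with that of other bright genes. Of all genes above the median signal 69.1% passed the threshold, and of these 87 genes 50 did. The median SD within the shEV arrays was 0.023 for these genes and 0.046 for all genes. In a fit of only the genes above the median signal, 60 of the 87 passed (69.0%), against 77.2% of all genes in that fit. The 3 shEV values did not overlap the 3 shCIRC values in 64 of the 94 genes (68.1%), and in 56% of all genes. Among all genes above the median signal, there was no overlap in 6362 of 7947.

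**Figure D1:**
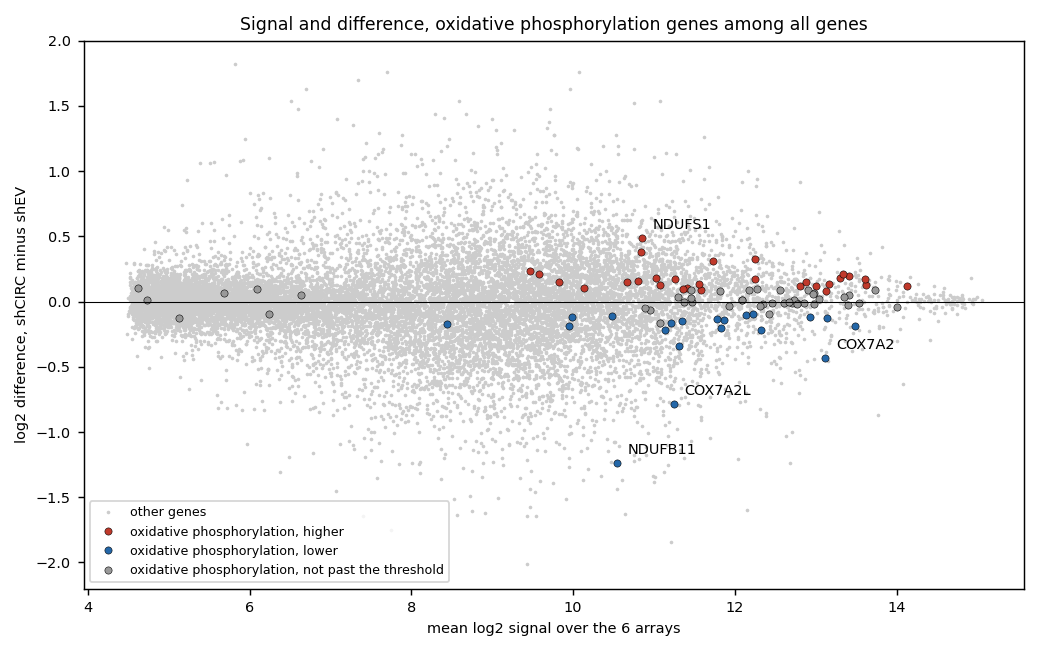
Mean log2 signal over the 6 arrays (x axis) and log2 difference, shCIRC minus shEV (y axis), of each gene. The large points are 93 of the 94 oxidative phosphorylation genes, coloured by their call at an adjusted p below 0.05, and the other genes are grey; 1 gene lies outside the plotted range. The large points sit mostly to the right of 10 and close to 0, with NDUFB11 at -1.23 as the lowest of them.

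Measurements of the libraries stand beside all of these results. Arrays of 1 group correlated with each other at r from 0.998 to 0.999 and arrays of different groups at 0.992. The control probe sets for RNA quality differed between the groups, since the signal of the 3′ end of GAPDH minus that of its 5′ end was -0.16 ± 0.016 (SD, n = 3) in shEV and -0.30 ± 0.023 in shCIRC cells, and for ACTB 0.13 ± 0.021 and -0.011 ± 0.034. The part of this difference in the results was not tested. Of 8 markers of colon epithelium, 6 were in the table, among them KRT18 at 11.2 in shEV and 10.9 in shCIRC cells, EPCAM at 8.54 and 8.08, and KRT8 at 7.70 and 8.23. KRT19, at 5.99 and 5.95, and LGALS4 were dim, and CDH1 and VIL1 were not in the table analysed. The 2 of 4 leukocyte markers in the table reached 7.53 at most, and those of fibroblasts, endothelium and muscle 6.68. In a bulk extract, fewer cells with an RNA and less of it per cell cannot be told apart.

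Complex I is the largest of the complexes, with a matrix arm that takes up electrons and a membrane arm that pumps protons. Of its 37 nuclear subunits, 13 rose, 6 fell and 18 did not pass. That is 51.4% past the threshold, against 47.5% of all genes and 69.1% of those above the median signal. The median log2 difference of the 37 was 0.031, and -0.0096 after cyclic loess. The lowest value of all 94 genes, that of NDUFB11, was found in this complex.

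NDUFB11, an accessory subunit of the membrane arm, was the gene with the largest fall. For NDUFB11, the shEV arrays read 11.12, 11.17 and 11.19 and the shCIRC arrays 9.89, 9.94 and 9.95 in log2 signal. The lowest shEV array lay more than 1 log2 unit above the highest shCIRC array. This gave NDUFB11 a log2 difference of -1.23 (standard error 0.035, adjusted p = 2.7e-06). The level in shCIRC cells was 0.425 times that in shEV cells, and its log2 difference ranked 50 from the lowest among the 15894 genes. A second probe set of the gene gave a log2 difference of -1.30. The brightest probe set was placed by the deposited annotation, whose genome build was not given in the sources used here, on chromosome X between 47001614 and 47004903 on the minus strand. The next lowest subunit of the complex was NDUFS7 at -0.34.

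The promoter of NDUFB11 is shown with those of COX7A2L and NDUFS1 because these genes had the largest differences among the members with a promoter in the RefSeq table (GRCh38.p14, 250 bases before to 50 bases after the listed start, 5′ to 3′ on the strand of the gene). The minus strand is read in all of them, at chrX:47144653-47144952, chr2:42361168-42361467 and chr2:206159395-206159694. Capitals mark the letters of the motifs CCGGAAG, read by ETS factors such as GABPA, and AANATGGC, read by YY1, on either strand, both known from promoters of respiratory chain genes.
NDUFB11: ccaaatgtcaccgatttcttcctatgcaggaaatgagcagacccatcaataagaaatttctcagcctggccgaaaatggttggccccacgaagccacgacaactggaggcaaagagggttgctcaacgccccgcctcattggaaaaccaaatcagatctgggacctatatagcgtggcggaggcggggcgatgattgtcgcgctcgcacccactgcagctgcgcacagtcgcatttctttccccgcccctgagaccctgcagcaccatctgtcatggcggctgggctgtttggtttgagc
COX7A2L: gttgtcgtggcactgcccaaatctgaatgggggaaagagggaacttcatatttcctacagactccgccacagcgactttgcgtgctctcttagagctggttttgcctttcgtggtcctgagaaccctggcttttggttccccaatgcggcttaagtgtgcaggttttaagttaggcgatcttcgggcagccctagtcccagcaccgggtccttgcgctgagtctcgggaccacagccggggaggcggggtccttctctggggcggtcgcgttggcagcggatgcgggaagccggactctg
NDUFS1: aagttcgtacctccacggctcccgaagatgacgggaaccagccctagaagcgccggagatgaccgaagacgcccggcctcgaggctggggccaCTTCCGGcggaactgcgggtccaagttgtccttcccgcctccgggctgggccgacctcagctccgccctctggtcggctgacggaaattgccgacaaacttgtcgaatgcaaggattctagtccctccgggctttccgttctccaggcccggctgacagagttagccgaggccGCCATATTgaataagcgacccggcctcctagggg
The NDUFS1 promoter held 1 match of each motif, and the printed promoters of NDUFB11 and COX7A2L held neither. More than 1 start was listed for 11 of the genes, and in the counts that follow a gene has a motif if the promoter of any of its starts does, as for COX7A2L, whose other listed start has the YY1 letters. A promoter was listed for 75 of the 94 genes. The ETS letters were found in 21 of them (28.0%) and in 18.9% of the 12516 measured genes with a promoter. The YY1 letters were found in 27 (36.0%) and in 11.0%. The consensus of NRF1, another regulator of these genes, was found in 6 (8%) and in 2.72%. The last letters of the ETS motif can also be the first of the YY1 motif, which was the case in 0 of the 75 promoters. By direction, the YY1 letters stood in 7 of the 22 genes that were higher, in 7 of the 17 that were lower and in 13 of the 36 that did not pass. For the ETS letters these counts were 6, 3 and 12, and for NRF1 2, 2 and 2. A match is a description of the letters in this window and not of a bound factor.

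The core subunits of the matrix arm hold the NADH site and the chain of iron-sulfur clusters. NDUFS1, which carries several of the iron-sulfur clusters, rose. Log2 signals of NDUFS1 were 10.59, 10.59 and 10.63 on the shEV arrays and 11.08, 11.12 and 11.09 on the shCIRC arrays. NDUFS1 thus differed by 0.49 on the log2 scale (standard error 0.030, adjusted p = 2.6e-05). The groups did not overlap, and all 5 probe sets of the gene were higher, by 0.29 to 0.52. Its deposited position was on chromosome 2 from 206988542 to 207024233.

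NDUFS7 holds the last iron-sulfur cluster before coenzyme Q. Signals of NDUFS7 in shEV cells were 11.47, 11.47 and 11.50, and in shCIRC cells 11.09, 11.17 and 11.15 (log2). The difference for NDUFS7 was -0.34 on the log2 scale with a standard error of 0.033 (adjusted p = 0.00018). It was lower, and so were its 3 probe sets, by 0.29 to 0.34 on the log2 scale. NDUFV1, which binds NADH and the flavin, also fell. NDUFV1 measured 11.27, 11.31 and 11.27 in shEV and 11.09, 11.15 and 11.12 in shCIRC cells on the log2 scale. This gave NDUFV1 a log2 difference of -0.17 (standard error 0.031, adjusted p = 0.004). Its partner NDUFV2 had a log2 difference of -0.014 (standard error 0.029), and its 3 values in each group overlapped. Log2 differences of the core subunits NDUFS3 and NDUFS8 were 0.031 and 0.089, and neither passed.

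Among the accessory subunits, which surround the core, 11 rose, 4 fell and 15 did not pass. NDUFB6, a small subunit of the membrane arm, had the largest rise among them. For NDUFB6, the shEV arrays read 11.60, 11.53 and 11.60 and the shCIRC arrays 11.90, 11.89 and 11.88 in log2 signal. NDUFB6 thus differed by 0.31 on the log2 scale (standard error 0.034, adjusted p = 0.00031). NDUFB9, another subunit of that arm and the brightest probe set of the complex, was also higher. Log2 signals of NDUFB9 were 13.33, 13.28 and 13.31 on the shEV arrays and 13.54, 13.51 and 13.47 on the shCIRC arrays. The difference for NDUFB9 was 0.20 on the log2 scale with a standard error of 0.033 (adjusted p = 0.0023). Its 4 probe sets were all higher. The other 9 accessory subunits that rose did so by 0.088 to 0.17 (NDUFB5, NDUFA5, NDUFC1, NDUFC2, NDUFS4, NDUFA11, NDUFAB1, NDUFA12 and NDUFA10). NDUFAB1 among them is the acyl carrier protein of mitochondria. NDUFB4, NDUFV3 and NDUFA6 fell by 0.10 to 0.14. Several of these calls rested on all arrays being used. Those of NDUFA10 and NDUFA12 were lost without any one of the 6 arrays (adjusted p up to 0.13 and 0.15), those of NDUFA11, NDUFS4 and NDUFB4 without any of 4 arrays (up to 0.084, 0.067 and 0.11), and that of NDUFV3 without any of 5 (up to 0.061).

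**Figure D2:**
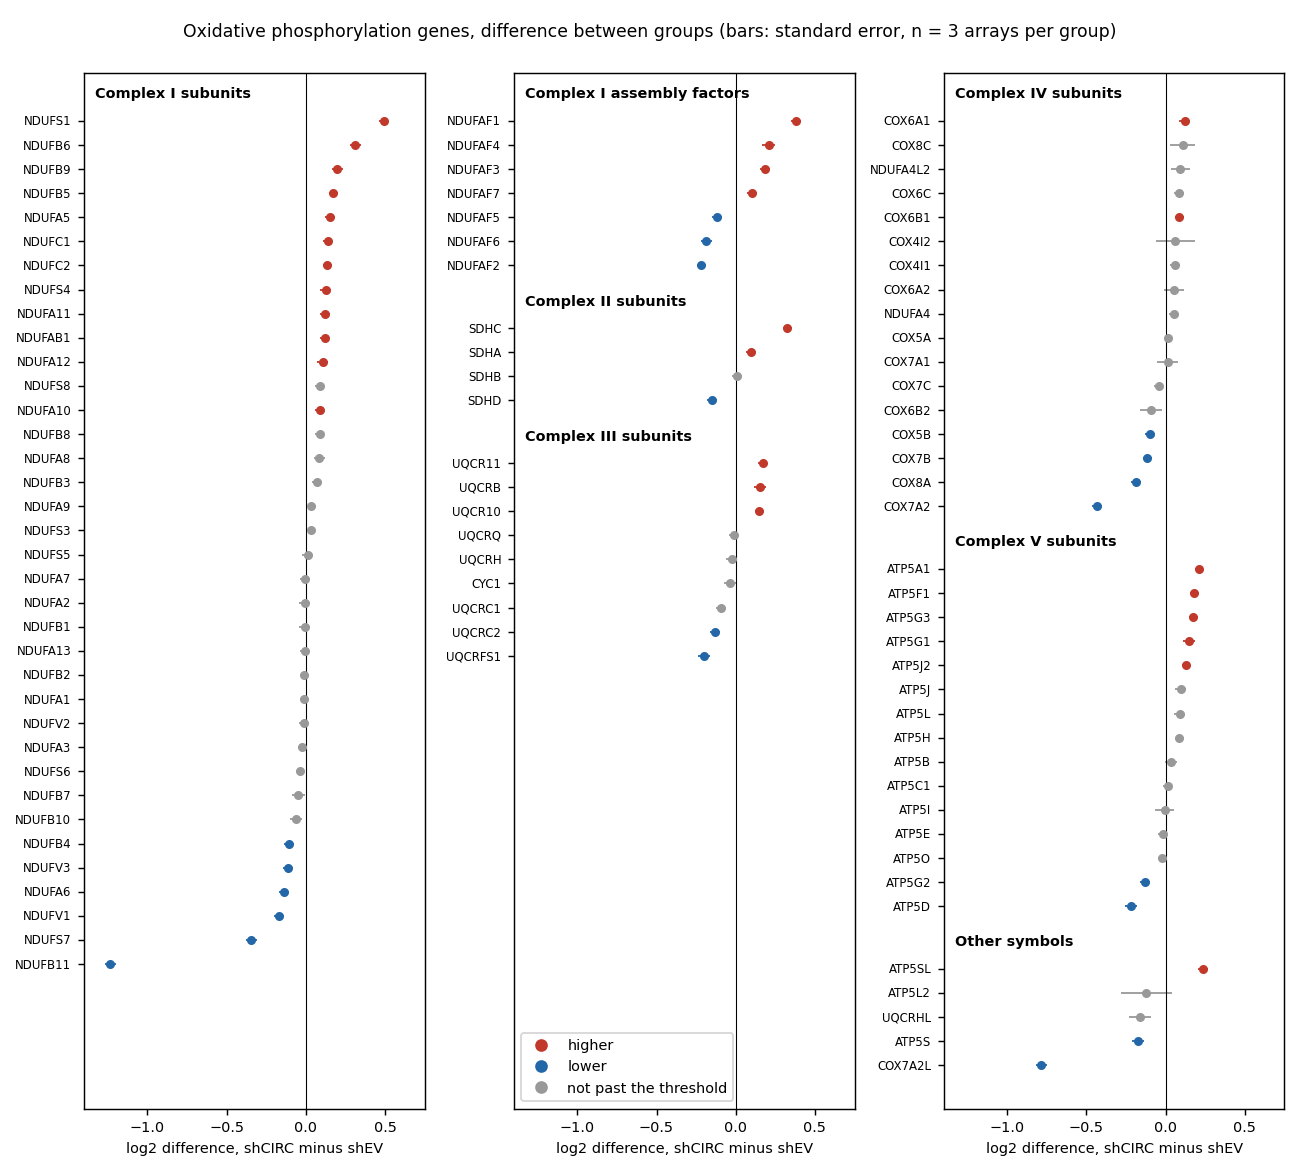
Log2 difference, shCIRC minus shEV, of 93 of the 94 genes, by complex, with the standard error of the fit as a bar (3 arrays per group). Red points passed the threshold as higher, blue points as lower and grey points did not pass; NDUFB11 is the lowest at -1.23, NDUFS1 lies at 0.49, and each complex has points on both sides of 0.

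Complex I is put together in steps by assembly factors that are not part of the finished enzyme. The 7 that carry NDUFAF symbols were all past the threshold, 4 higher and 3 lower. Of all genes 47.5% passed, and of the genes above the median signal, where all 7 lay, 69.1%. The median log2 difference of the 7 was 0.10, and 0.064 to 0.13 under the other scalings. NDUFAF1, which helps to build the membrane arm, was the one past a fold of 1.3. Signals of NDUFAF1 in shEV cells were 10.67, 10.64 and 10.63, and in shCIRC cells 11.01, 11.07 and 11.00 (log2). This gave NDUFAF1 a log2 difference of 0.38 (standard error 0.032, adjusted p = 0.0001). NDUFAF4 and NDUFAF3 bind each other and act on the part that holds the coenzyme Q site. NDUFAF4 measured 9.45, 9.50 and 9.47 in shEV and 9.75, 9.68 and 9.62 in shCIRC cells on the log2 scale. NDUFAF4 thus differed by 0.21 on the log2 scale (standard error 0.042, adjusted p = 0.0053). NDUFAF3 moved in the same direction. For NDUFAF3, the shEV arrays read 10.91, 10.96 and 10.93 and the shCIRC arrays 11.10, 11.13 and 11.12 in log2 signal. The difference for NDUFAF3 was 0.18 on the log2 scale with a standard error of 0.029 (adjusted p = 0.0019). Both were higher in every shCIRC array. NDUFAF7, a methyltransferase, had a log2 difference of 0.10 (adjusted p = 0.044), a call that was lost without any one of the 6 arrays (adjusted p up to 0.14), and also under cyclic loess and a second quantile normalization.

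The 3 assembly factors that fell were NDUFAF2, NDUFAF6 and NDUFAF5. NDUFAF2 acts late in the assembly. Log2 signals of NDUFAF2 were 11.26, 11.24 and 11.21 on the shEV arrays and 11.02, 11.01 and 11.04 on the shCIRC arrays. This gave NDUFAF2 a log2 difference of -0.22 (standard error 0.030, adjusted p = 0.001). NDUFAF6 acts early in the assembly. Signals of NDUFAF6 in shEV cells were 10.02, 10.04 and 10.05, and in shCIRC cells 9.79, 9.89 and 9.88 (log2). NDUFAF6 thus differed by -0.18 on the log2 scale (standard error 0.038, adjusted p = 0.0062). Of the 4 probe sets of NDUFAF6, 2 were lower, and the differences ran from -0.18 to 0.096. NDUFAF5, which hydroxylates NDUFS7, differed least. NDUFAF5 measured 10.09, 10.03 and 10.02 in shEV and 9.95, 9.94 and 9.91 in shCIRC cells on the log2 scale. The difference for NDUFAF5 was -0.12 on the log2 scale with a standard error of 0.032 (adjusted p = 0.021). Its adjusted p was 0.076 at most when 1 array was left out, and the call was lost without shEV array 1 or without shCIRC array 3.

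Complex II, the succinate dehydrogenase of the tricarboxylic acid cycle, has 4 subunits, of which 2 rose, 1 fell and 1 did not pass. That is 75.0% past the threshold, against 47.5% of all genes and 69.1% of those above the median signal. Under cyclic loess and under a second quantile normalization 1 of the 4 was higher and 1 lower. SDHC and SDHD are the membrane anchors, and they moved in opposite directions. For SDHC, the shEV arrays read 12.08, 12.08 and 12.10 and the shCIRC arrays 12.41, 12.41 and 12.42 in log2 signal. This gave SDHC a log2 difference of 0.33 (standard error 0.028, adjusted p = 0.0001). All 5 probe sets of SDHC were higher, by 0.25 to 0.47. Log2 signals of SDHD were 11.40, 11.44 and 11.41 on the shEV arrays and 11.24, 11.29 and 11.27 on the shCIRC arrays. SDHD thus differed by -0.15 on the log2 scale (standard error 0.030, adjusted p = 0.0058). Of the 5 probe sets of SDHD, 2 were lower, and the smallest difference among them was -0.030. The groups did not overlap for either anchor.

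SDHA, the flavoprotein that oxidises succinate, was slightly higher. Signals of SDHA in shEV cells were 11.32, 11.32 and 11.28, and in shCIRC cells 11.38, 11.42 and 11.42 (log2). The difference for SDHA was 0.10 on the log2 scale with a standard error of 0.031 (adjusted p = 0.037). That call was lost when any shEV array or shCIRC array 2 or 3 was left out, with adjusted p-values up to 0.12. The iron-sulfur subunit SDHB had a log2 difference of 0.0084 and did not pass.

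Complex III has 9 nuclear subunits in the table, of which 3 rose, 2 fell and 4 did not pass. That is 55.6% past the threshold, against 47.5% of all genes and 69.1% of those above the median signal. Under cyclic loess 2 of the 9 were higher and 3 lower. Core and accessory subunits had different ranges. The 4 core subunits had log2 differences from -0.20 to -0.036 with 2 of them lower, and their median stayed between -0.15 and -0.088 under the other scalings. The 5 small accessory subunits had log2 differences from -0.026 to 0.17 with 3 of them higher, and a median of 0.11 to 0.17 under those scalings. These ranges are those of the brightest probe sets. Second probe sets of core subunits gave 0.072 for UQCRC2, 0.021 for UQCRC1 and -0.021 for CYC1. Those of accessory subunits gave -0.046 for UQCR11, -0.061 for UQCRB, -0.021 for UQCRQ and 0.37 for UQCRH. The difference between the core and the accessory subunits was not tested.

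UQCRFS1, the Rieske iron-sulfur protein that takes electrons from coenzyme Q, fell most in this complex. UQCRFS1 measured 11.95, 11.91 and 11.91 in shEV and 11.77, 11.66 and 11.73 in shCIRC cells on the log2 scale. This gave UQCRFS1 a log2 difference of -0.20 (standard error 0.037, adjusted p = 0.0039). UQCRC2 is a core protein that carries no electrons. For UQCRC2, the shEV arrays read 11.83, 11.84 and 11.85 and the shCIRC arrays 11.68, 11.72 and 11.73 in log2 signal. UQCRC2 thus differed by -0.13 on the log2 scale (standard error 0.030, adjusted p = 0.01). Its second probe set had a log2 difference of 0.072 and did not pass. UQCRC1, the other core protein, was at -0.094 and CYC1, the heme protein that reduces cytochrome c, at -0.036, and neither passed.

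UQCR11 and UQCR10 are small subunits of the membrane part. Log2 signals of UQCR11 were 12.17, 12.14 and 12.16 on the shEV arrays and 12.33, 12.34 and 12.31 on the shCIRC arrays. The difference for UQCR11 was 0.17 on the log2 scale with a standard error of 0.028 (adjusted p = 0.0023). UQCR10 rose by a similar amount. Signals of UQCR10 in shEV cells were 12.80, 12.79 and 12.82, and in shCIRC cells 12.95, 12.96 and 12.95 (log2). This gave UQCR10 a log2 difference of 0.15 (standard error 0.028, adjusted p = 0.0043). Every shCIRC array was above every shEV array for both, but the second probe set of UQCR11 had a difference of -0.046, which did not pass. UQCRB was higher on its brightest probe set. UQCRB measured 9.81, 9.75 and 9.71 in shEV and 9.92, 9.94 and 9.86 in shCIRC cells on the log2 scale. UQCRB thus differed by 0.15 on the log2 scale (standard error 0.039, adjusted p = 0.016). The call was lost without shEV array 2 or 3, with an adjusted p up to 0.057, and of the other probe sets of UQCRB, all dimmer, 1 was lower and 1 higher. UQCRQ, the brightest probe set of the complex, had a log2 difference of -0.013 (standard error 0.030) that did not pass, on values of 13.52, 13.53 and 13.57 against 13.51, 13.53 and 13.54.

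Complex IV, the cytochrome c oxidase, had 17 nuclear genes in the table, of which 2 rose, 4 fell and 11 did not pass. When each array was centred on its median 3 were higher and 2 lower, and under cyclic loess 0 were higher and 4 lower. Of the 11 that did not pass, 6 were isoforms known from other tissues, such as COX4I2 of lung and COX6A2 and COX7A1 of heart and muscle. Their signals lay between 4.62 and 6.64, below the median of all genes, and their log2 differences between -0.095 and 0.11. The other 11 genes had signals from 12.2 to 14.1. Past the threshold were 35.3% of the 17 genes and 54.5% of these 11. Of all genes 47.5% passed, and of those above the median signal 69.1%.

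COX7A2, the isoform of subunit 7A found in most tissues, fell most in complex IV and was the only gene of the complex past a fold of 1.3. For COX7A2, the shEV arrays read 13.33, 13.31 and 13.35 and the shCIRC arrays 12.94, 12.87 and 12.89 in log2 signal. The difference for COX7A2 was -0.43 on the log2 scale with a standard error of 0.032 (adjusted p = 6e-05). Of its 5 probe sets, 4 were lower, and all differences lay between -0.48 and -0.24. The deposited position was on chromosome 6 from 75947504 to 75960039. The groups did not overlap.

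COX8A, COX7B and COX5B were the other subunits of complex IV that fell. Log2 signals of COX8A were 13.58, 13.61 and 13.55 on the shEV arrays and 13.38, 13.42 and 13.38 on the shCIRC arrays. This gave COX8A a log2 difference of -0.19 (standard error 0.031, adjusted p = 0.0023). COX7B, like NDUFB11, is encoded on the X chromosome. Signals of COX7B in shEV cells were 12.99, 12.98 and 12.98, and in shCIRC cells 12.88, 12.86 and 12.85 (log2). COX7B thus differed by -0.12 on the log2 scale (standard error 0.028, adjusted p = 0.013). COX5B binds zinc on the matrix side. COX5B measured 12.25, 12.26 and 12.29 in shEV and 12.14, 12.18 and 12.20 in shCIRC cells on the log2 scale. The difference for COX5B was -0.10 on the log2 scale with a standard error of 0.032 (adjusted p = 0.044). These are small subunits around the mitochondrially encoded centre, and each was lower on every shCIRC array.

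The 2 subunits that rose were COX6A1, the brightest probe set of all 94 genes, and COX6B1, which faces cytochrome c. For COX6A1, the shEV arrays read 14.07, 14.07 and 14.06 and the shCIRC arrays 14.16, 14.24 and 14.17 in log2 signal. This gave COX6A1 a log2 difference of 0.12 (standard error 0.034, adjusted p = 0.023). The rise of COX6B1 was smaller. Log2 signals of COX6B1 were 13.08, 13.08 and 13.07 on the shEV arrays and 13.14, 13.18 and 13.17 on the shCIRC arrays. COX6B1 thus differed by 0.085 on the log2 scale (standard error 0.029, adjusted p = 0.047). Both calls, like that of COX5B, lay close to the threshold. That of COX6A1 was lost without any one of the shEV arrays (adjusted p up to 0.067), and that of COX6B1 without any array other than shCIRC array 1 (up to 0.12). The call of COX5B was lost without any one of the 6 arrays (up to 0.13). COX4I1 and NDUFA4, once counted as a subunit of complex I, had log2 differences of 0.062 and 0.051 and did not pass. COX5A was at 0.017 with overlapping groups.

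**Figure D3:**
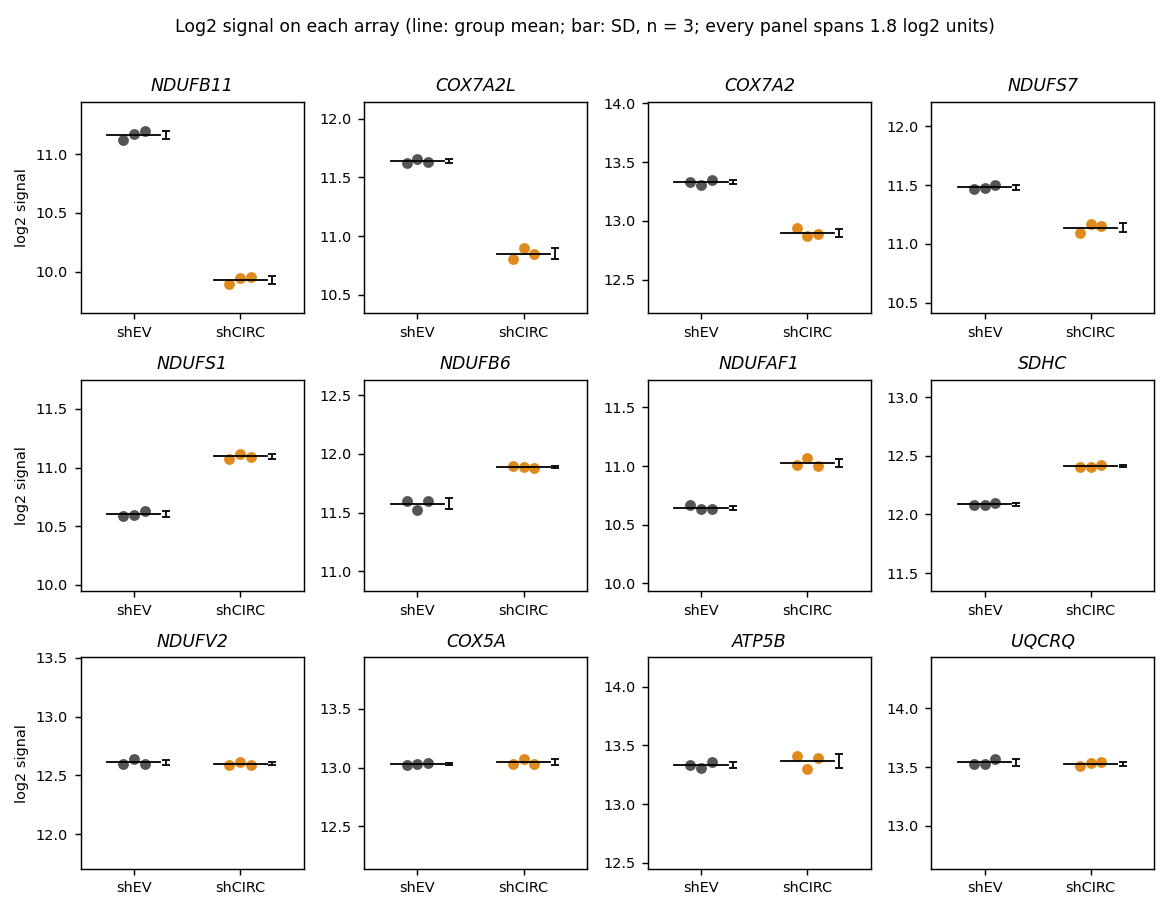
Log2 signal on each of the 6 arrays for 12 genes, with the group mean as a line and the SD of the 3 arrays as a bar; every panel spans the same number of log2 units. NDUFB11, COX7A2L, COX7A2 and NDUFS7 are lower on all shCIRC arrays, NDUFS1, NDUFB6, NDUFAF1 and SDHC are higher, and the groups overlap for NDUFV2, COX5A, ATP5B and UQCRQ.

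Complex V, the ATP synthase, consists of a rotating head in the matrix (F1), a ring of c subunits in the membrane and a peripheral stalk that holds the head still. Of its 15 genes, 5 rose, 2 fell and 8 did not pass. That is 46.7% past the threshold, against 47.5% of all genes and 69.1% of those above the median signal. The median log2 difference of the 15 was 0.087, and between 0.049 and 0.11 under the other scalings. No gene of complex V differed by more than 0.22 on its brightest probe set. Other probe sets of ATP5L (0.34 and 0.35), ATP5F1 (0.25) and ATP5C1 (-0.30, not past the threshold) differed by more.

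In the head, ATP5A1, the alpha subunit, was higher and ATP5D, the delta subunit of the central stalk, was lower. Signals of ATP5A1 in shEV cells were 13.23, 13.23 and 13.24, and in shCIRC cells 13.44, 13.45 and 13.45 (log2). The difference for ATP5A1 was 0.21 on the log2 scale with a standard error of 0.027 (adjusted p = 0.00067). Of the 4 probe sets of ATP5A1, 2 were higher, and all had differences between 0.065 and 0.22. ATP5D measured 12.45, 12.44 and 12.42 in shEV and 12.15, 12.25 and 12.25 in shCIRC cells on the log2 scale. This gave ATP5D a log2 difference of -0.22 (standard error 0.037, adjusted p = 0.0025). Of its 3 probe sets, 2 were lower. ATP5B, the catalytic beta subunit, had values of 13.33, 13.31 and 13.35 against 13.41, 13.30 and 13.39, and its log2 difference of 0.034 did not pass. In the peripheral stalk, ATP5F1, the b subunit, was the gene that rose. For ATP5F1, the shEV arrays read 13.21, 13.21 and 13.20 and the shCIRC arrays 13.38, 13.41 and 13.38 in log2 signal. ATP5F1 thus differed by 0.18 on the log2 scale (standard error 0.028, adjusted p = 0.0015). The other 3 genes of the stalk, ATP5H, ATP5J and ATP5O, had differences from -0.020 to 0.10 and did not pass.

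The c ring is made of a single mature protein that 3 genes encode with different import sequences, and all 3 passed the threshold, not in the same direction. ATP5G1 and ATP5G3 were higher. Log2 signals of ATP5G1 were 10.61, 10.55 and 10.60 on the shEV arrays and 10.79, 10.69 and 10.72 on the shCIRC arrays. The difference for ATP5G1 was 0.15 on the log2 scale with a standard error of 0.037 (adjusted p = 0.014). The groups of ATP5G3 lay further apart than their own spread. Signals of ATP5G3 in shEV cells were 13.52, 13.51 and 13.53, and in shCIRC cells 13.70, 13.69 and 13.70 (log2). This gave ATP5G3 a log2 difference of 0.18 (standard error 0.027, adjusted p = 0.0016). ATP5G2 was lower on every shCIRC array. ATP5G2 measured 13.19, 13.20 and 13.20 in shEV and 13.04, 13.10 and 13.06 in shCIRC cells on the log2 scale. ATP5G2 thus differed by -0.13 on the log2 scale (standard error 0.030, adjusted p = 0.011). The call of ATP5G1 was lost without shEV array 2 (adjusted p = 0.052). The change of ATP5G1 exceeded that of ATP5G2 by 0.28 on the log2 scale, and that of ATP5G2 fell short of that of ATP5G3 by 0.31 (log2 difference of the pair -0.31). Both pairs were separated without overlap, but with 3 arrays against 3 the two-sided exact permutation test cannot go below p = 0.1, and over the 9 pairs of related genes compared the adjusted p was 0.23. ATP5G1 and ATP5G3 differed from each other by -0.027 in their change (exact permutation p = 0.4, adjusted p = 0.6).

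ATP5J2, the f subunit of the membrane part, was the brightest probe set of the complex. For ATP5J2, the shEV arrays read 13.55, 13.56 and 13.56 and the shCIRC arrays 13.67, 13.69 and 13.69 in log2 signal. The difference for ATP5J2 was 0.13 on the log2 scale with a standard error of 0.028 (adjusted p = 0.0077). Of its 5 probe sets, 4 were higher. The deposited position of the brightest one was on chromosome 6, whereas the gene lies on chromosome 7, and whether it also reads a copy of the gene was not tested. The same held for ATP5E, placed on chromosome 13 while its gene is on chromosome 20, which had a log2 difference of -0.019. No other of the 94 genes had its brightest probe set on a chromosome other than its own.

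The symbol search also found 5 genes that encode neither a subunit nor one of the NDUFAF assembly factors, and COX7A2L had the largest difference among them. Its product joins complexes III and IV into supercomplexes and resembles COX7A2. Log2 signals of COX7A2L were 11.62, 11.65 and 11.64 on the shEV arrays and 10.80, 10.90 and 10.85 on the shCIRC arrays. This gave COX7A2L a log2 difference of -0.79 (standard error 0.035, adjusted p = 9.2e-06). The level in shCIRC cells was 0.58 times that in shEV cells, its log2 difference ranked 307 from the lowest, and the groups did not overlap. Its second probe set gave -0.88. The deposited position was on chromosome 2 from 42578272 to 42588360. COX7A2 and COX7A2L both fell, COX7A2 by less, with a difference of 0.35 between their log2 differences (exact permutation p = 0.1, the smallest possible, adjusted p = 0.23).

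ATP5SL, now DMAC2, which takes part in building the membrane arm of complex I, was higher. Signals of ATP5SL in shEV cells were 9.33, 9.34 and 9.36, and in shCIRC cells 9.55, 9.62 and 9.56 (log2). ATP5SL thus differed by 0.23 on the log2 scale (standard error 0.033, adjusted p = 0.0011). Of its 7 probe sets, 6 were higher. ATP5S, now DMAC2L, was lower, with a log2 difference of -0.17 (adjusted p = 0.0091). UQCRHL and ATP5L2, copies of UQCRH and ATP5L, were at -0.16 and -0.12 and did not pass. The probe set of UQCRHL was placed at 2 positions, and the first lay on UQCRH.

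The other probe sets of the same genes served as a check. They numbered 113 and belonged to 56 of the 94 genes. Of the 74 that belonged to a gene past the threshold, 51 also passed in the same direction, 21 did not pass, and 2, a dim probe set of NDUFC2 at -0.33 and one of UQCRB at -0.096, passed in the other direction. Not all of them were separate measurements. The second probe set of NDUFB4 had the same values as its brightest on every array. A pair of the other probe sets of SDHD also had equal values. Over all 37458 probe sets of 1 gene, 50.3% passed in a fit of each probe set. Of the 39 that belonged to a gene not past the threshold, 7 passed. They included a probe set of NDUFA13 at 0.78 with a mean signal of 8.25, one of UQCRH at 0.37, 2 of NDUFB3 at 0.29 and 0.34, 2 of ATP5L at 0.34 and 0.35, and one of COX4I1 at -0.28. For these genes the brightest probe set differed by less than 0.1, so the probe sets of a gene did not measure the same difference. By their names, 45 of the 94 brightest probe sets match transcripts of 1 gene, 19 match several transcripts that may be of different genes (suffix s), 23 hold probes that can bind other sequences (suffix x), and 7 have no such suffix.

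**Figure D4:**
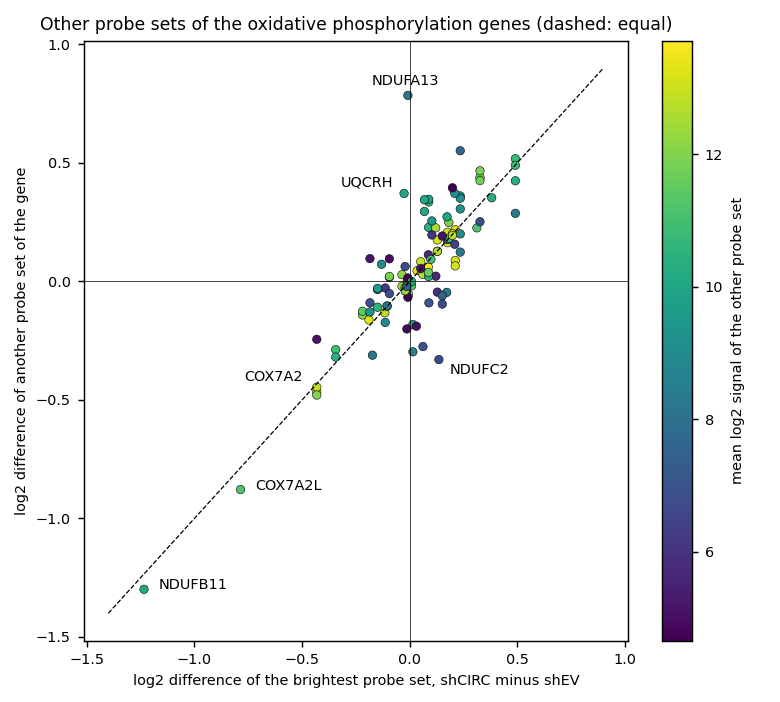
Log2 difference, shCIRC minus shEV, of the brightest probe set of a gene (x axis) and of each of its other probe sets (y axis), coloured by the mean log2 signal of the other probe set, for 110 other probe sets of 55 genes. The points of NDUFB11, COX7A2L and COX7A2 lie near the dashed line of equal differences, while a probe set of NDUFA13 lies at 0.78 against -0.0085.

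Genes of the neighbouring steps were read from 7 lists, to be set against 47.5% of all genes past the threshold. Of the genes above the median signal of all genes, 69.1% passed. The median signal of each list lay above that median, between 8.52 and 12.9. The first held subunits that the symbol search did not reach and cytochrome c, and among the 7 of its genes that were measured, 1 was higher and 0 were lower. That gene was ND1, a subunit of complex I encoded in mitochondrial DNA, at a log2 difference of 0.14 (standard error 0.029, adjusted p = 0.0075). ND4 was at -0.094, COX3, also mitochondrial, at 0.16 and cytochrome c (CYCS) at -0.077, and none of these passed, although under cyclic loess 1 gene of the list was higher and 2 were lower.

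The assembly factors of the 5 complexes without NDUFAF symbols were 44, of which 16 were higher and 9 lower (57% past the threshold). BCS1L, which inserts the Rieske protein UQCRFS1 into complex III, had the largest fall of the list, from 10.04 ± 0.046 (SD, n = 3) in shEV to 8.83 ± 0.037 in shCIRC cells. BCS1L had a log2 difference of -1.21 with a standard error of 0.038 (adjusted p = 3.2e-06). The complex III factor UQCC3 fell by 0.47 on the log2 scale. NUBPL had a log2 difference of 0.89 with a standard error of 0.043 (adjusted p = 1.1e-05). NUBPL, which brings iron-sulfur clusters to complex I, had the largest rise, and HIGD1A, a small protein of complex IV, followed at 0.35 (adjusted p = 0.00021). The list had values on both sides of 0, with a median of 0.049.

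Coenzyme Q carries electrons between the complexes. Of 16 genes for its synthesis and for the electron transfer flavoprotein, 8 were higher and 5 lower (81% past the threshold). COQ4 and COQ5 rose by 0.58 and 0.53 on the log2 scale, while COQ2, which attaches the side chain, fell by 0.78 and COQ10A fell by 0.60. The standard errors of these differences were between 0.036 and 0.053. Pyruvate dehydrogenase and the tricarboxylic acid cycle supply the electrons. Of their 19 genes, 8 were higher and 5 lower (68% past the threshold). IDH3B, a subunit of the NAD-dependent isocitrate dehydrogenase, rose by 0.57 and PDHB, of pyruvate dehydrogenase, by 0.54. MDH2, the malate dehydrogenase of mitochondria, fell by 0.70 from 12.49 ± 0.010 (SD, n = 3) in shEV to 11.79 ± 0.049 in shCIRC cells, and IDH2, which makes NADPH, fell by 0.48.

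The regulators of mitochondrial biogenesis had the lowest median of the lists, -0.14, against 0.024 for the 94 genes and -0.0045 for all genes. Of 11 regulators in the table, 6 were lower and 1 was higher. That is 64% past the threshold, against 47.5% of all genes and 69.1% of those above the median signal. Of all genes 24.7% were lower. HCFC1, a coactivator, fell by 0.55 and the transcription factor CREB1 by 0.50. GABPA, the subunit that reads the ETS letters, rose by 0.23 with an adjusted p of 0.044. Its adjusted p was 0.13 at most when 1 array was left out, and the call was lost without shEV array 1 or 2 or shCIRC array 1 or 2. Among the other factors whose letters were counted, NRF1 was lower at -0.20 (limma, adjusted p = 0.0034). YY1, at 0.080, did not pass.

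**Figure D5:**
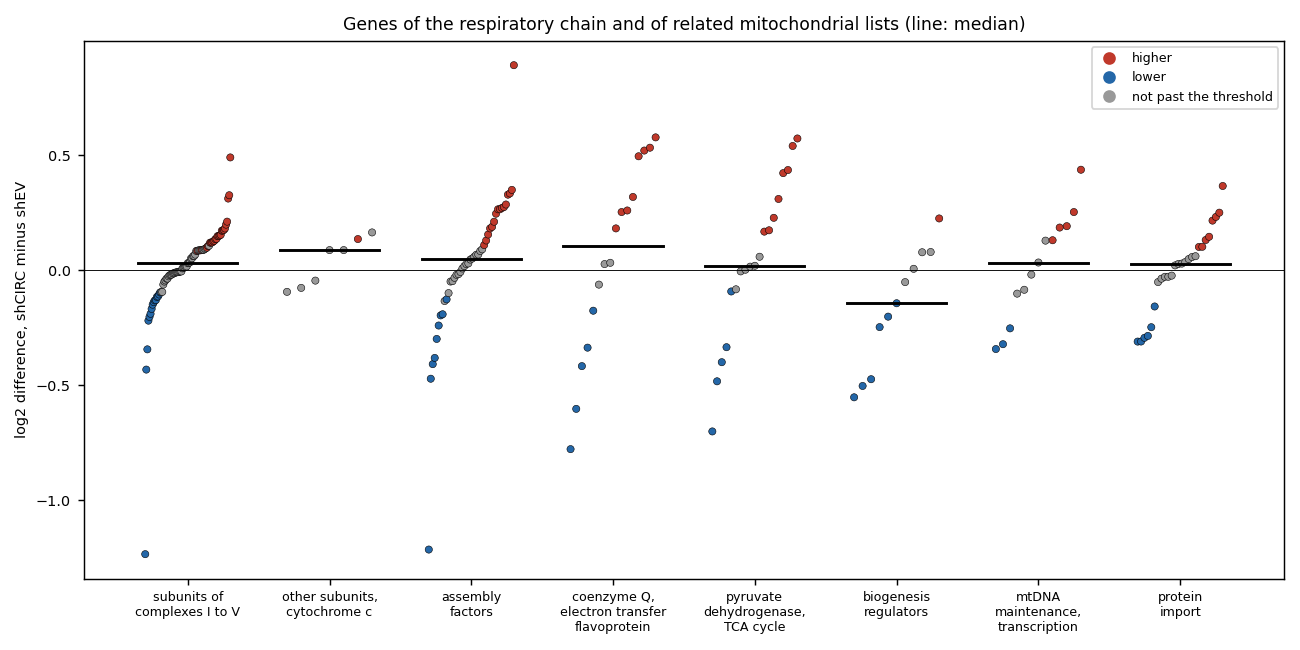
Log2 difference, shCIRC minus shEV, of the subunits of complexes I to V and of the genes of the 7 related mitochondrial lists, each point a gene coloured by its call and each line the median of its list; 1 subunit is counted in the median but not drawn. The subunits lie closer to 0 than most lists, with a median of 0.031, and the regulators of mitochondrial biogenesis have the lowest median, -0.14.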

How the data were processed

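Total RNA of 6 RKO cell samples was hybridised to Affymetrix PrimeView arrays, 3 of each group. The authors deposited log2 signals of each probe set, quantile normalised between arrays in R per their methods; the processing notes name GCOS 1.4, and the background correction and the probe summary are not stated in those sources. Quantile normalisation gives the values it is applied to the same distribution on every array, so a shift of all genes could be hidden. The array medians of the deposited probe set values still ranged from 6.82 to 6.85. The annotated table holds 39269 of the 49395 probe sets of the value table, with equal values, and its filter is not given. Columns of the authors' own comparison (p-values, also adjusted, log2 and fold ratios and a signed fold score) were deposited beside the signals and were not used. Array data give no read depth, and the number of arrays limits the precision.

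Probe sets naming 1 gene (37458) were kept, 12 shared by a member and another gene were left out, and the brightest probe set stood for each of 15894 genes. Groups were compared with limma 3.58.1 (lmFit and eBayes) in R 4.3.3, tested on simulated data, and p-values were adjusted over all genes by the Benjamini-Hochberg method (threshold 0.05). Pairs of related genes were compared with an exact permutation test in scipy 1.17.1. Alternatives changed the scaling, the probe set, the filter, the test, the threshold, the pairing and the arrays used. Text values cover, in each complex, up to 3 genes with the largest rise and up to 3 with the largest fall past the threshold, the brightest gene and the related pairs, and in each other list up to 2 each way. COX7A2L and the other genes that are no subunit, and the genes given for contrast, were named beyond that rule. The values of 1 of the 94 genes are not reported here, though all counts and medians include it. The genes and lists were chosen with earlier results of these data known. The promoter motifs were chosen after the data were seen, and the NRF1 consensus replaced a narrower form of the same motif, which was also found in a larger share of the members than of the measured genes.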

Additional observations from a re-analysis of the deposited data

How the results depend on the processing

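No gene past the threshold changed direction under another scaling, and 36 of the 50 kept their call without each array in turn. The 14 genes whose call was lost at least once were SDHA, COX5B, COX6A1, COX6B1, UQCRB, ATP5G1, NDUFAF5, NDUFAF7, NDUFA10, NDUFA11, NDUFA12, NDUFS4, NDUFB4 and NDUFV3. Without 1 array, the genes higher in shCIRC numbered 20 to 26 and those lower 17 to 20. By complex, the ranges were 9 to 11 higher and 4 to 6 lower for complex I, 3 to 3 and 2 to 3 for its assembly factors, 1 to 2 and 1 to 1 for complex II, 2 to 3 and 2 to 3 for complex III, 0 to 2 and 3 to 3 for complex IV, and 4 to 6 and 2 to 2 for complex V. At an adjusted p below 0.01, 19 genes were higher and 13 lower, with 8 higher in complex I, 1 higher in complex II, 1 lower in complex III, 0 higher and 2 lower in complex IV, and 1 lower in complex V. Where a fold above 1.3 was also required, 3 genes rose and 3 fell, namely 2 higher and 1 lower in complex I, 1 higher and 0 lower among the assembly factors, 1 lower in complex IV, 0 in every other count by complex, and COX7A2L, which belongs to none. These stricter thresholds pass fewer genes by construction.

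With the second brightest probe set, which 56 genes had, 12 genes were lower, and 8 were higher in complex I, 1 lower among the assembly factors, 1 higher and 0 lower in complexes II and III, 0 higher in complex IV and 1 lower in complex V. UQCR11 then had a log2 difference of -0.046, UQCRB of -0.061 and UQCRC2 of 0.072, and none of these passed, while NDUFC2 passed in the other direction at -0.33 (adjusted p = 0.0061). With the mean of all probe sets, NDUFC2 turned to -0.097 and did not pass, 0 genes were lower in complex II, 1 in complex III, and 1 was higher in complex IV. Cyclic loess left 1 gene higher in complex II and 0 in complex IV, a second quantile normalization left 1 higher in complex II, and centring each array on its median left 2 lower in complex IV and made 36 genes higher and 16 lower in all. Among the genes above the median signal 8 were higher in complex V, and limma with trend and robust gave 8 there and 5 in complex IV. The cause of these changes was not tested. Analysis of all probe sets of the value table was not run, since the remaining ones carry no gene name here. The methods' t-test gave 33 higher and 22 lower after Benjamini-Hochberg adjustment.

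The arrays of both groups carry replicate numbers. Deviations of arrays with the same number from their group means correlated at 0.066, 0.086 and 0.099, too low to take the numbers as pairs, though each array correlated best with its own number. With the number as a block, 25 genes were higher and 20 lower, with 1 higher in complex II and 1 in complex IV, and 44 of the 50 genes kept their call.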

Other observations

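Mitochondrial DNA is copied and transcribed by nuclear gene products. Of 13 genes for its maintenance and transcription, 5 were higher and 3 lower (62% past the threshold). Of all genes 47.5% passed, and of those above the median signal 69.1%. Under cyclic loess or a second quantile normalization 4 of the 13 were higher and 5 lower. MGME1, a nuclease of mitochondrial DNA, had a log2 difference of 0.44, shCIRC minus shEV, and POLG2, the accessory subunit of the mitochondrial DNA polymerase, 0.25. The catalytic subunit of that polymerase, POLG, fell by 0.32 and the helicase C10orf2, now TWNK, fell by 0.34 on the log2 scale. All 4 passed the threshold in limma, with adjusted p-values from 7e-05 to 0.0017.

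Almost all subunits of the respiratory chain are imported from the cytosol. Of 26 genes of mitochondrial protein import, 8 were higher and 6 lower (54% past the threshold). Of all genes 47.5% passed, and of those above the median signal 69.1%. The median signal of the 26 was 11.1. Under cyclic loess 5 of the 26 were higher and 7 lower. TIMM22, the channel for carrier proteins, rose by 0.37 and PMPCB, a subunit of the peptidase that removes import sequences, by 0.25. TIMM13 and TOMM40, the pore of the outer membrane, each fell by 0.31. Adjusted p-values of these 4 genes were between 0.00014 and 0.001.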
